A study of Mus musculus with 4 samples.

Results

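*Osr1*, *Osr2*, *Wt1*, *Sall1*, *Pax2*, *Pax8*, *Uncx*, *Meox1*, *Meox2* and *Cited1* are 10 regulators of transcription named for their expression in the metanephric mesenchyme, and were taken by gene symbol from the 52636 Ensembl genes counted. All 10 were detected in every library, with between 68 and 22950 reads. The libraries hold mRNA of tdTomato+ cells that were sorted from embryonic mouse kidneys of 2 genotypes of a mixed genetic background at E12.5 to E12.75, 48 h after tamoxifen was begun. Control cells came from *Eya1CreER;tdTomato* embryos, and *Eya1*cKO cells from *Eya1CreER;Eya1fl/fl;tdTomato* embryos. The *Eya1CreER* allele, the tdTomato reporter and tamoxifen were thus common to both groups, and the floxed *Eya1* alleles were in the *Eya1*cKO group only. CreER is active only where the *Eya1CreER* allele is expressed, so the sorted cells are those labelled from that allele and their descendants. Each genotype has 2 libraries of 5000 cells (control 1 and 2, *Eya1*cKO 1 and 2). Cell suspensions of several embryos were combined before sorting, so *P* values measure the spread between portions of pooled cells, which may be technical.

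The metanephric mesenchyme is the tissue that condenses around the ureteric bud and supplies the nephron progenitor cells (NPCs). Its identity rests on a set of DNA-binding factors of the zinc finger, paired box and homeobox families, which act together with Eya1 and Six2 and drive *Gdnf*, the signal that makes the ureteric bud branch. NPCs either renew themselves in the cap mesenchyme or turn into epithelium, and the factors described here leave or stay at different steps of that path. *Wt1*, for example, is used again in podocytes, and *Pax2* and *Pax8* are also present in ureteric epithelium and early nephrons. *Cited1* encodes a coregulator that does not itself bind DNA, so it is a transcription factor only in the wider sense.

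Reads counted on genes ranged from 17457452 to 37999342 per library, and the *Eya1*cKO libraries were the shallower. Reads on no gene made up 12.9% to 13.9% of all reads recorded in the controls and 20.9% to 22.7% in *Eya1*cKO. Unaligned reads were 6.32% to 6.69% and 12.7% to 12.9%, and genes with a read numbered 26486 to 27091 and 20538 to 21455. The part of these library differences in the results was not tested. The floor of 3 counts was between 0.0801 and 0.171 CPM, and all 10 genes lay above it in every library (counting error only, since PCR copies are not independent molecules). CPM are counts scaled to library size with TMM factors. Negative log2 fold changes mean a lower level in *Eya1*cKO, and they came from the quasi-likelihood test of edgeR over the 19041 genes that passed its low-count filter. With 2 libraries against 2 an exact permutation test of a single value cannot go below *P* = 0.333. The targeted gene, *Eya1*, had 6612 and 6420 reads in control 1 and 2, and only 377 and 219 reads in the *Eya1*cKO pair, so the genotype labels held. *Six2*, the defining gene of the cap mesenchyme, had 8655 and 9150 reads in the controls, and so the control libraries carried this cell type.

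Of the 10 genes, 3 pairs are close relatives, and their reads could be confused only where the transcripts are alike over the length of a 75-base read. No stretch of 75 bases was shared in the same sense between a transcript of any of the 10 genes and a transcript of another gene in GENCODE M21. The most similar stretch of coding sequence is printed for this reason for 2 of the pairs, with bases common to both relatives in capitals. It covers 2 exons in each of these 4 genes (GRCm38). In *Pax2* (chromosome 19, 44761027 to 44761745, plus strand) and *Pax8* (chromosome 2, 24443080 to 24444582, minus strand), 68 of 75 bases matched. In *Osr1* (chromosome 12, 9579735 to 9580505, plus strand) and *Osr2* (chromosome 15, 35300897 to 35301927, plus strand), 67 of 75 matched.
Pax2: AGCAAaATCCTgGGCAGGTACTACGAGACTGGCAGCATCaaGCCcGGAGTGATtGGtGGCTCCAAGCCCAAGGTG
Pax8: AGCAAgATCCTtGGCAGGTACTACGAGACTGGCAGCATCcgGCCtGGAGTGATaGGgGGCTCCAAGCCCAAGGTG
Osr1: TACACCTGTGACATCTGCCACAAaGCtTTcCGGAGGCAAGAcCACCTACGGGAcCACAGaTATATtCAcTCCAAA
Osr2: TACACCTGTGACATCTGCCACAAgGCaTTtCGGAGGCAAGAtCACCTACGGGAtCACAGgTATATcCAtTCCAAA
Each read of these stretches therefore has at least 7 positions at which the relatives differ. The only exonic overlap among the 10 genes was that of *Pax8*, of which 6.06% lies opposite exons of *Gm13415* on the other strand. The strand setting of the counting is not given in the sources used here. *Gm13415* had 108 and 89 reads in the controls and 0 and 1 in *Eya1*cKO, few beside the reads of *Pax8*.

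Most of these regulators were much lower in *Eya1*cKO, and 3 were not past the threshold. *Pax2*, *Uncx*, *Osr1*, *Meox1*, *Meox2*, *Cited1* and *Sall1* fell to between 11.7% and 33.4% of their control CPM, whereas *Osr2* and *Wt1* were at 95.1% and 117% and *Pax8* at 74.0%. In numbers, 7 of the 10 genes were lower in *Eya1*cKO with an adjusted *P* under 0.05 in edgeR, against 4.41% of all genes tested, and none was higher. *Wt1* was the 1 gene higher at an unadjusted *P* under 0.05, and DESeq2 called none higher. In 8 of the 10 both *Eya1*cKO libraries lay below both controls, as they did for 30.0% of all genes tested. The 7 became 3 when control 1 was left out and 2 (*Pax2* and *Uncx*) when control 2 was left out, since the spread then came from the *Eya1*cKO libraries alone, but no fold change turned its sign in any of 120 repeated fits. *Osr1*, *Meox1*, *Meox2* and *Cited1* missed the threshold without either control library, with adjusted *P* values of up to 0.23, 0.38, 0.23 and 0.53. For most of the 10 genes the groups lay apart, so the repeated fits could hardly turn the sign of a fold change. In such samples fewer cells of a type and less RNA per cell cannot be told apart.

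**Figure D1:**
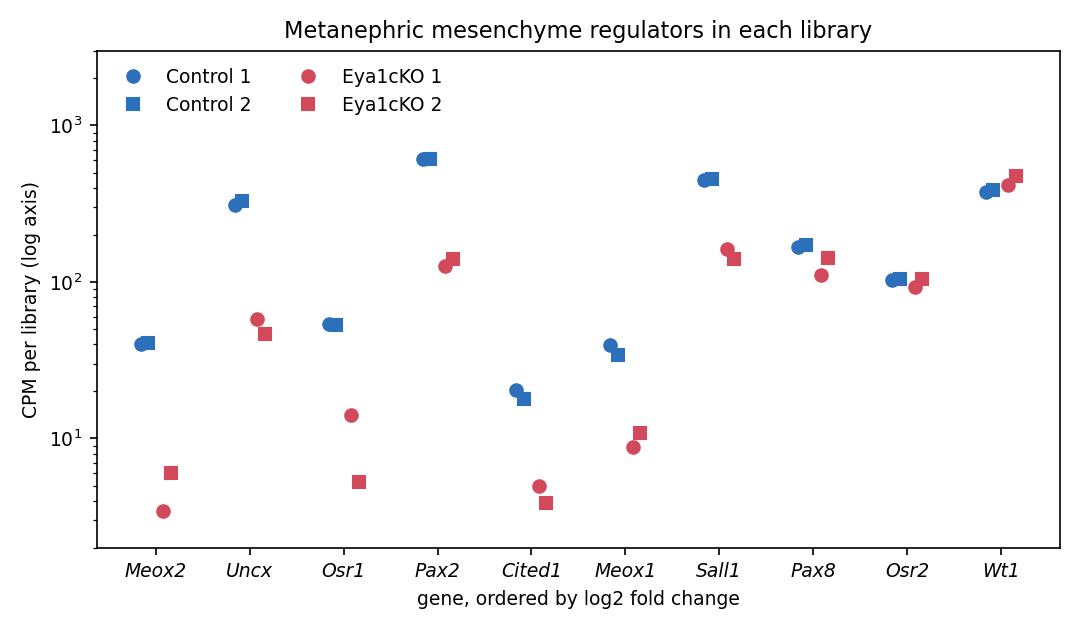
CPM of each gene in each library on a log axis, with the genes ordered by log2 fold change (circles, library 1; squares, library 2; blue, control; red, *Eya1*cKO). From *Meox2* to *Pax8* all red points lie under the blue ones, those of *Osr2* overlap, and those of *Wt1* lie above.

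**Figure D2:**
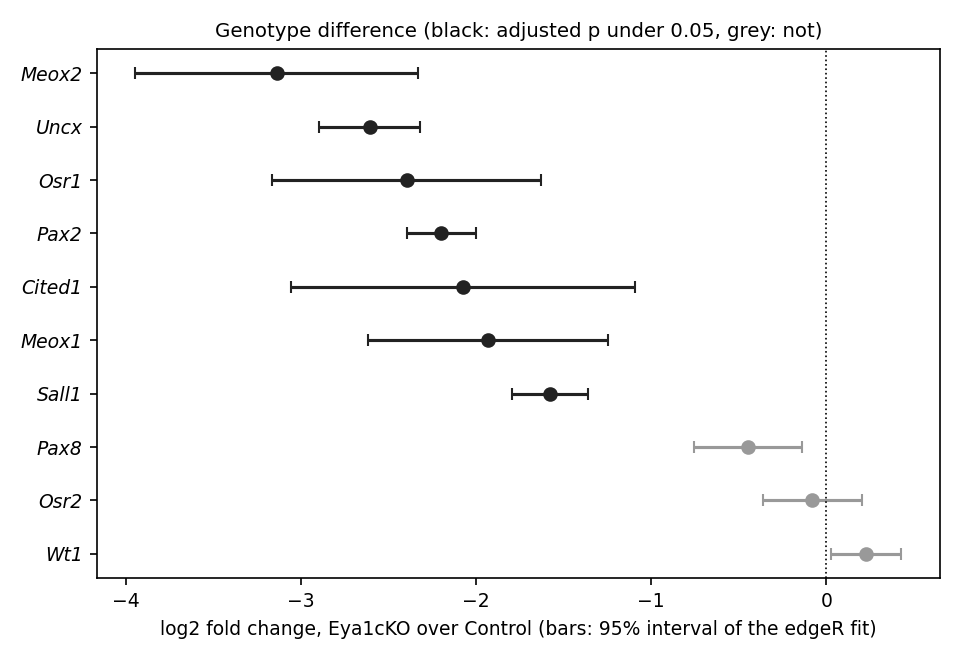
Log2 fold change of each gene, *Eya1*cKO over control, with the unadjusted 95% interval of the edgeR fit as bars. The 7 genes in black, from *Meox2* at -3.14 to *Sall1* at -1.58, have an adjusted *P* under 0.05, and *Pax8*, *Osr2* and *Wt1* in grey do not.

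*Pax2* and *Pax8* encode paired box factors that together specify the nephric lineage. *Pax2* lies on chromosome 19 from 44756045 to 44837871 of GRCm38. Reads on *Pax2* numbered 21402 and 22950 in the control libraries, but 2877 and 2469 in *Eya1*cKO. This was 613 CPM in each control library, against 127 and 141 CPM in *Eya1*cKO. The fall was thus much larger than the spread in either group (log2 fold change -2.20 ± 0.08 SE, edgeR adjusted *P* = 7.3e-05), and 21.9% of the control level remained. *Pax8* (chromosome 2, 24420560 to 24475599) had 5858 and 6442 reads in the controls and 2495 and 2477 in *Eya1*cKO. In CPM this was 168 and 172, against 110 and 141 in *Eya1*cKO, so that the groups did not overlap but the *Eya1*cKO libraries lay further from each other than the higher of them lay from the controls. The log2 fold change of *Pax8* was -0.45 (standard error 0.13, 95% interval -0.75 to -0.14) and missed the threshold (edgeR adjusted *P* = 0.080). With at least 10 counts required in every library it did pass (edgeR adjusted *P* = 0.048), and the range of its adjusted *P* over the alternatives on all 4 libraries was 0.048 to 0.15. The log2 fold change of *Pax8* was -0.28 without *Eya1*cKO 1 and -0.64 without *Eya1*cKO 2.

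*Osr1* and *Osr2* encode related zinc finger proteins, and *Osr1* is one of the first genes of the intermediate mesoderm, from which the kidney forms. *Osr1*, on chromosome 12 from 9570116 to 9581500, went from 1887 and 1991 reads in the controls to 318 reads in *Eya1*cKO 1 and 92 in *Eya1*cKO 2. The controls stood at 54.0 and 53.2 CPM and *Eya1*cKO at 14.1 and 5.24 CPM, so that the *Eya1*cKO libraries also differed from each other. The fall was past the threshold (log2 fold change -2.40 ± 0.33 SE, edgeR adjusted *P* = 0.0075). It was -3.36 without *Eya1*cKO 1 and -1.94 without *Eya1*cKO 2, so the size of the fall, though not its direction, rested on which library was kept. *Osr2* (chromosome 15, 35296098 to 35303305) had 3613 and 3905 reads in the controls and 2110 and 1827 in *Eya1*cKO. Scaled to depth these were 103 and 104 CPM against 93.4 and 104 CPM, and the groups overlapped. The log2 fold change of -0.08 had a 95% interval from -0.36 to 0.20 (edgeR adjusted *P* = 0.71), which leaves room for a fall of at most 0.36 on the log2 scale.

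*Wt1* encodes the zinc finger factor on which survival of the mesenchyme, and later the podocyte, depends. It lies on chromosome 2 from 105126529 to 105173616 and had 13060 and 14418 reads in the controls and 9387 and 8358 in *Eya1*cKO. In CPM it was at 374 and 385 in the controls and at 415 and 476 in *Eya1*cKO. It was the only one of the 10 genes with both *Eya1*cKO libraries above both controls, against 4818 of all 19041 genes tested. The difference of *Wt1* missed the threshold (log2 fold change 0.23 ± 0.08 SE, edgeR adjusted *P* = 0.13), and the range of its adjusted *P* over the alternatives on all 4 libraries was 0.087 to 0.28. With *Eya1*cKO 1 left out *Wt1* had a log2 fold change of 0.32, and with *Eya1*cKO 2 left out 0.11. Beside it, 9 of 10 podocyte markers were higher in *Eya1*cKO (2 without control 1 and 3 without control 2), and the list summed to 854 and 869 CPM in control against 2825 and 2862 CPM. The part of podocytes in the level of *Wt1* was not tested.

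*Sall1* encodes a zinc finger protein of the spalt family that is needed for the ureteric bud to enter the mesenchyme and, in NPCs, for their renewal. It lies on chromosome 8 from 89027235 to 89044162 and had 15693 and 17012 reads in the controls and 3652 and 2453 in *Eya1*cKO. Control libraries held 449 and 454 CPM, *Eya1*cKO libraries 162 and 140 CPM, and the groups lay far apart. Its log2 fold change, -1.58 ± 0.09 (SE; edgeR adjusted *P* = 3.7e-04), was the smallest of those that passed. It stayed between -1.70 and -1.50 with each library left out in turn, although its adjusted *P* was 0.052 without control 2.

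*Uncx*, *Meox1* and *Meox2* are homeobox genes that are also known from the somites, the segments that give rise to vertebrae and muscle. *Uncx* (chromosome 5, 139543494 to 139548179) had 10903 and 12281 reads in the controls and 1301 and 813 in *Eya1*cKO. It fell from 312 and 328 CPM to 57.6 and 46.3 CPM (log2 fold change -2.61 ± 0.12 SE, edgeR adjusted *P* = 1.5e-04). *Meox2* (chromosome 12, 37108540 to 37179534) had 1393 and 1532 reads in the controls and 78 and 106 in *Eya1*cKO. At 39.9 and 40.9 CPM against 3.45 and 6.04 CPM it had the lowest fold change of the 10 genes over all 4 libraries (log2 fold change -3.14 ± 0.34 SE, edgeR adjusted *P* = 0.0034), and 11.7% of the control level was left. Without *Eya1*cKO 1 its log2 fold change was -2.75, and *Osr1* (-3.36) and *Uncx* (-2.80) were then lower. Its relative *Meox1*, on chromosome 11 from 101877510 to 101894374, had nearly as many reads in the controls, 1385 and 1285, and 199 and 189 in *Eya1*cKO. *Meox1* had 39.7 and 34.3 CPM in control and 8.81 and 10.8 CPM in *Eya1*cKO, with the groups well apart (log2 fold change -1.93 ± 0.29 SE, edgeR adjusted *P* = 0.010). Skeletal muscle markers, which would mark only the muscle-forming cells of the somites, were low, and neither of the 2 tested passed. The part of somite cells in the levels of *Uncx*, *Meox1* and *Meox2* was not tested. *Myf5* was at 0 in all 4 libraries, and the 5 markers summed to 2.92 and 1.79 CPM in control and 6.64 and 0.741 CPM in *Eya1*cKO.

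*Cited1* marks the NPCs of the cap mesenchyme that have not yet been induced. It lies on chromosome X from 102247381 to 102252181 and was the least abundant of the 10 genes in the controls, with 711 and 665 reads, against 113 and 68 reads in *Eya1*cKO. Control libraries held 20.4 and 17.8 CPM and *Eya1*cKO libraries 5.0 and 3.88 CPM, so that every *Eya1*cKO library was under every control. Its log2 fold change was -2.08 ± 0.42 (SE), and of the genes that fell *Cited1* was the closest to the threshold (edgeR adjusted *P* = 0.027).

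Promoter sequence was at hand from RefSeq (GRCm38.p6) for 6 of the 10 genes, and for 4 of these a RefSeq start coincided with the start of the gene in GENCODE. The 250 bases before that start are shown for these 4, 3 of which fell (*Meox2*, *Cited1* and *Sall1*) while *Pax8* did not pass. Capitals mark matches on either strand to the TATA box (TATAAA), to the CCAAT box and to the GC box (GGGCGG). The sequence TCAGGTTNC, known from binding by Six2, was searched as well, and no match overlapped another. The windows are *Meox2* chr12:37108290-37108539 on the plus strand, *Cited1* chrX:102252182-102252431, *Pax8* chr2:24475600-24475849 and *Sall1* chr8:89044163-89044412, the last 3 on the minus strand.
Meox2: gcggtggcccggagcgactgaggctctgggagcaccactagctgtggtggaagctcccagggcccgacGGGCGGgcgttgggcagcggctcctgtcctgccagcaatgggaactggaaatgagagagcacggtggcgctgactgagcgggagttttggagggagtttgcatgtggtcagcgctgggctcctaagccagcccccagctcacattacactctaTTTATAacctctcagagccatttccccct
Cited1: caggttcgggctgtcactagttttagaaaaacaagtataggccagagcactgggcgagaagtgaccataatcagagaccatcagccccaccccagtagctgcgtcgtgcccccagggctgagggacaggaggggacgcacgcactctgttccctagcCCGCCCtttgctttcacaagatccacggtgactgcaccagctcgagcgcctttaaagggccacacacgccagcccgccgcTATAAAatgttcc
Pax8: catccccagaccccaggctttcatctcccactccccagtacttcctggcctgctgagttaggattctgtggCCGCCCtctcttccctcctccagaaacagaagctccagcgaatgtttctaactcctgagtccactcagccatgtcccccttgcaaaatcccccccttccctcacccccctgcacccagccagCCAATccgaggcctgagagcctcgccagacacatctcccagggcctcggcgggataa
Sall1: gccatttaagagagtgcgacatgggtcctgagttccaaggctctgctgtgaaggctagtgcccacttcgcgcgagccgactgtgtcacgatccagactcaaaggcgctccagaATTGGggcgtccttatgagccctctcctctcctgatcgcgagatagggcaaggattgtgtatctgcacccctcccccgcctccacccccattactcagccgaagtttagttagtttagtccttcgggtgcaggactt
TATAAA was found before *Meox2* and *Cited1*, and it is present in 12.4% of the 32851 RefSeq windows of this length. CCAAT was found before *Pax8* and *Sall1* (33.8% of all windows), and GGGCGG before *Meox2*, *Cited1* and *Pax8* (32.7%). TCAGGTTNC was in none of the 4 windows and is in 1.07% of all windows. *Sall1* and *Cited1* have other RefSeq starts, not shown, whose windows hold other matches. Before those of *Sall1*, GGGCGG was found 1 time (chr8:89042863-89043112) and 4 times (chr8:89043513-89043762). Before those of *Cited1*, TATAAA and CCAAT were found in 1 window (chrX:102251844-102252093), and no match in the other (chrX:102250777-102251026). These are matches of letters only, and say nothing of whether a factor binds.

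The balance within each pair of relatives can be read inside a library, where it does not depend on how libraries are scaled. *Pax2* made up 78.5% and 78.1% of the reads of *Pax2* and *Pax8* in control 1 and 2. In *Eya1*cKO 1 and 2 it made up 53.6% (Wilson 95% interval 52.2 to 54.9) and 49.9% (48.5 to 51.3). The share of *Pax2* thus dropped by 26.6 percentage points between the means. *Osr1* gave 34.3% and 33.8% of the reads of *Osr1* and *Osr2* in the controls, and 13.1% (11.8 to 14.5) and 4.79% (3.93 to 5.84) in *Eya1*cKO. For the *Meox* genes the balance moved although both fell. *Meox1* gave 49.9% and 45.6% of the pair in the controls and 71.8% (66.3 to 76.8) and 64.1% (58.4 to 69.3) in *Eya1*cKO, since *Meox2* fell further. In none of the 3 pairs did the libraries of the genotypes overlap. The intervals cover counting error only, and they did not overlap between *Eya1*cKO 1 and 2 for the *Osr1* and *Pax2* shares, nor between control 1 (48.0 to 51.7) and control 2 (43.8 to 47.5) for the *Meox1* share.

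**Figure D3:**
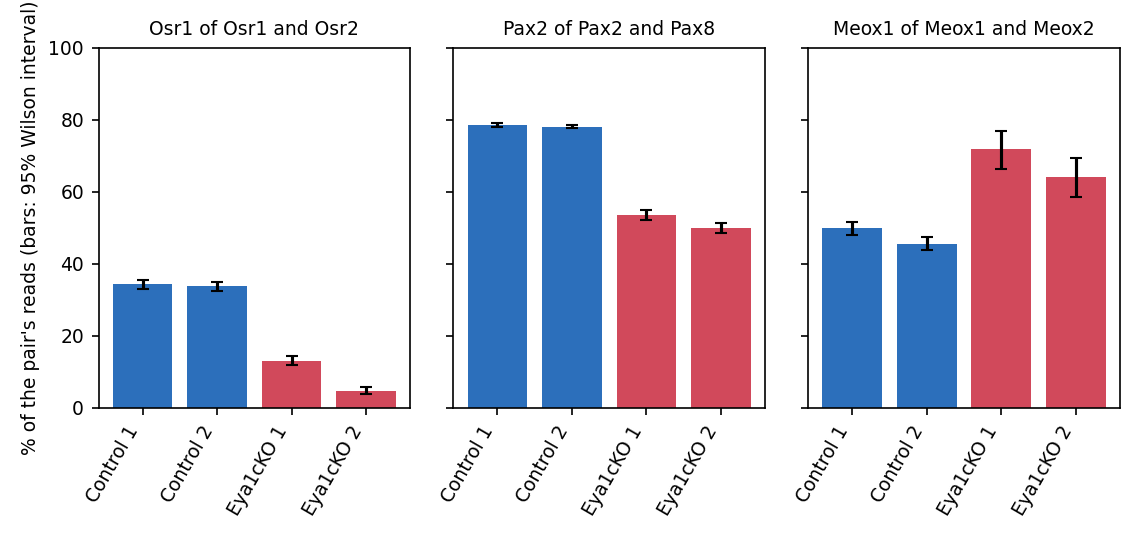
Share of the first gene among the reads of each pair of relatives, in percent, in each library (blue, control; red, *Eya1*cKO; error bars, Wilson 95% interval). The *Pax2* share lies near 78% in both controls and at 53.6% and 49.9% in *Eya1*cKO, the *Osr1* share drops as well, and the *Meox1* share is higher in *Eya1*cKO.

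To compare levels between genes, CPM were divided by exonic length in kb. In the controls the order was *Pax2* with 113 ± 0.0046 CPM per kb (SD, n = 2 libraries), *Uncx* with 102 ± 3.55, *Sall1* with 85.8 ± 0.663 and *Wt1* with 61.3 ± 1.26, followed at some distance by *Osr2*, *Pax8* and *Osr1* with 28.7, 28.0 and 25.9, by *Meox2* and *Meox1* with 17.1 and 16.6, and by *Cited1* with 10.9. Only the neighbours *Meox2* and *Meox1* had overlapping libraries. In *Eya1*cKO *Wt1* stood first with 72.0 ± 6.97 CPM per kb, apart from *Sall1* with 28.6 ± 2.93. *Sall1*, *Osr2* and *Pax2* followed each other with 28.6, 27.3 and 24.8 CPM per kb, and *Sall1* overlapped with *Osr2* and *Osr2* with *Pax2*. *Pax8* and *Uncx*, *Osr1* and *Meox1*, and *Cited1* and *Meox2* were also neighbours whose libraries overlapped. *Meox2* moved from rank 8 to rank 10 and *Uncx* from rank 2 to rank 6. Of all reads on the 10 genes, *Wt1* took 17.2% and 17.5% in the controls and 41.7% and 44.3% in *Eya1*cKO, while *Pax2* went from 28.2% and 27.8% to 12.8% and 13.1%. The 10 genes together had 2174 and 2203 CPM in control and 997 and 1075 CPM in *Eya1*cKO.

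**Figure D4:**
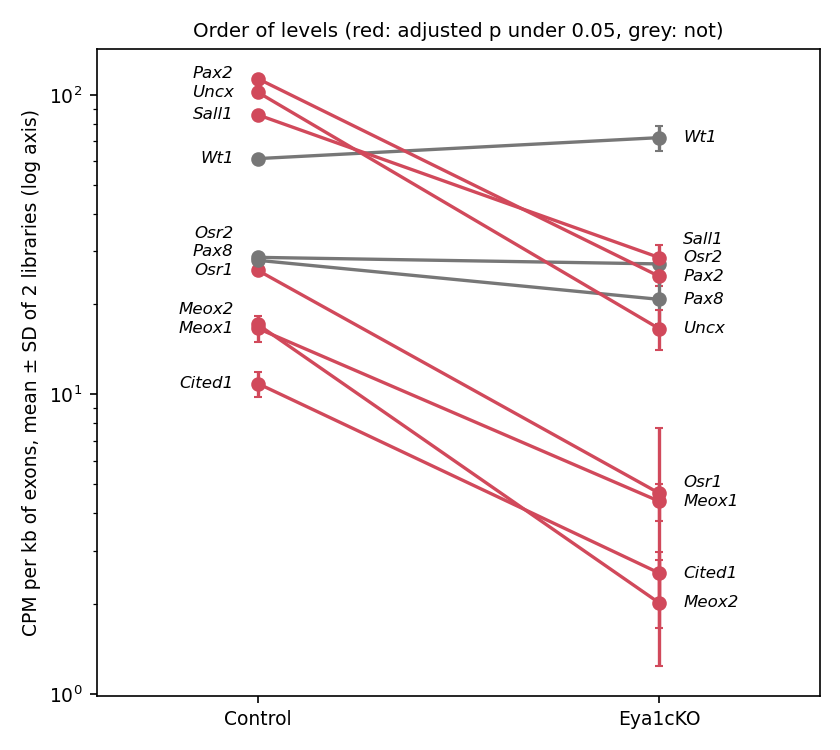
Mean level per kb of exons in each genotype on a log axis, with the SD of 2 libraries as error bars and a line for each gene (red, adjusted *P* under 0.05; grey, not). In the controls *Pax2*, *Uncx* and *Sall1* are above *Wt1*, and in *Eya1*cKO *Wt1* stands alone at 72.0 CPM per kb.

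The control libraries were close to each other in these genes, whereas the *Eya1*cKO libraries were less so. The ratio of control 2 to control 1 was between 0.865 (*Meox1*) and 1.05 (*Uncx*), and its exact binomial 95% interval excluded 1 for 4 of the 10 genes. The ratio of *Eya1*cKO 2 to *Eya1*cKO 1 ran from 0.373 (*Osr1*, 95% interval 0.292 to 0.471) to 1.75 (*Meox2*, 1.29 to 2.38), and the interval excluded 1 for 8 genes. These intervals cover counting error only, and the share of all genes whose interval excludes 1 was not counted. Over 20120 genes the chi-square per degree of freedom was 9.68 between the controls, and over 18446 genes 49.7 between the *Eya1*cKO libraries. Such differences were thus not particular to these 10 genes. *Osr1*, *Cited1*, *Uncx* and *Sall1* were lower in *Eya1*cKO 2, and the other 6 genes were lower in *Eya1*cKO 1, so neither library was the lower one throughout. *Six2*, with 377 and 80 reads in *Eya1*cKO 1 and 2, had a ratio of 0.273, on the same side as *Osr1*.

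Among 15 other regulators of the metanephric mesenchyme, *Eya1* included, 10 were lower in *Eya1*cKO by edgeR, none was higher, and 5 did not pass, with a median log2 fold change of -1.28. They ran from *Six2* with -4.44 (adjusted *P* = 4.3e-04) to *Dach1*, a partner of Eya1 and Six2, with 0.26 (adjusted *P* = 0.13), the 1 gene of the list higher at an unadjusted *P* under 0.05. *Six2* was at -5.76 without *Eya1*cKO 1 and at -3.90 without *Eya1*cKO 2. The median of the 10 genes described here was -2.0, and that of all genes tested 0.02. Of 9 genes of nephron commitment, the step at which NPCs turn epithelial, 6 fell and 3 did not pass, from -2.66 for *Fgf8*, a growth factor (adjusted *P* = 0.034), to 0.06 for *Cdh6*, a cadherin (adjusted *P* = 0.83). *Fgf8* had 156 reads in *Eya1*cKO 1 and 4 in *Eya1*cKO 2. Leaving out the former gave -6.77, and leaving out the latter -1.88, on the log2 scale. Its adjusted *P* was 0.069 without the low-count filter and 0.23 with the legacy method, and under either 4 genes of the commitment list fell. Without control 1 or control 2, 3 of the other regulators and 0 commitment genes were past the threshold in edgeR, the latter with 6 at an unadjusted *P* under 0.05. These lists were drawn up with earlier results of these data known, so the counts describe and do not test them.

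Markers of other cells moved in both directions. Of 10 ureteric bud markers *Calb1* and *Ret* fell and 8 did not pass, and the list summed to 334 and 355 CPM in control and 240 and 243 in *Eya1*cKO. All 8 endothelial markers were higher, from 618 and 629 CPM in sum to 1068 and 1127, but 4 were without the low-count filter and 5 with the legacy method. Of 9 stroma markers 3 were higher (*Dcn*, *Pdgfrb* and *Foxd1*), *Tbx18* was lower and 5 did not pass (2 higher, *Foxd1* and *Tbx18* no longer past the threshold, without the filter or with the legacy method), with sums of 983 and 968 CPM in control and 1377 and 1285 CPM in *Eya1*cKO. The 6 markers of the adrenal cortex and the 7 sympathoadrenal markers were all higher. The adrenal cortex list summed to 15.6 and 11.2 CPM in control and 698 and 670 CPM in *Eya1*cKO, and the sympathoadrenal list to 5.18 and 8.44 CPM and to 533 and 569 CPM. Of the blood cell markers *Hba-a1* was at 0 in all 4 libraries, and the list of 6 summed to 60.9 and 57.1 CPM in control and 60.7 and 71.3 CPM in *Eya1*cKO, with none of the 3 genes tested past the threshold in edgeR or at an unadjusted *P* under 0.05. The 4 mesothelium markers summed to 7.45 and 9.19 CPM in control and 17.2 and 10.4 CPM in *Eya1*cKO, again with none of the 3 tested past either limit. Without control 1 and without control 2, 1 adrenal cortex, 2 sympathoadrenal and 0 endothelial, stroma and ureteric bud markers were past the threshold in edgeR, with 13 of the last 3 lists at an unadjusted *P* under 0.05. The part of these other cells in the falls of *Pax2*, *Uncx*, *Sall1*, *Osr1*, *Meox1*, *Meox2* and *Cited1* was not tested.

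**Figure D5:**
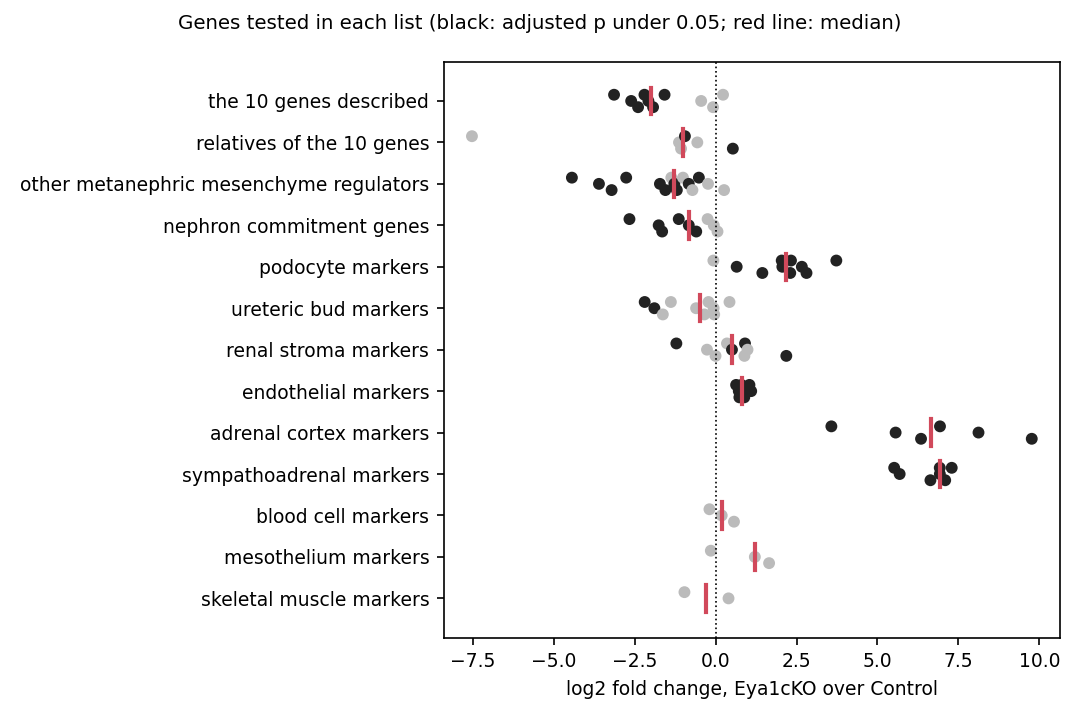
Log2 fold change of each gene tested in each list, *Eya1*cKO over control (black, adjusted *P* under 0.05; grey, not; red line, median). The 10 genes described lie mostly under 0 with a median of -2.0, while all adrenal cortex and sympathoadrenal markers lie above 3.5; the point at -7.5 is *Pax5*, a fitted value that is no bound, with 0 reads in *Eya1*cKO.

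Across the 4 libraries, the likeness of 2 genes was taken as the root mean square difference of their centred log2 CPM, and each of the 10 genes was set against the 97 other tested genes of the lists, one another included. The nearest to *Pax2* was *Calb1* (0.125 log2 units), a calcium-binding protein of the ureteric bud, which was also nearest to *Uncx* (0.24) and *Cited1* (0.103). *Meox2* was nearest to *Gdnf* (0.155), *Meox1* to *Etv5* (0.103) and *Sall1* to *Bmp2* (0.0456). *Wt1* was nearest to *Dach1* (0.0312), *Osr2* to *Foxc2* (0.0303) and *Pax8* to *Jag1* (0.0908). *Osr1* had no close neighbour, its nearest being *Uncx* at 0.368. The 4 libraries share 2 genotypes, so genes with a like genotype difference are near each other by construction.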

How the data were processed

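RNA-seq was carried out on 4 libraries of FACS-sorted cells, 2 per genotype. Per the labels and the study's methods, the authors mapped single-end reads to mm10 with HISAT2 and counted them on Ensembl release 90 genes with HTSeq, and the deposited values are raw read counts. Strand setting, trimming and tool versions are not given in the sources used here. The labels and methods differ in the number of kidneys and females. The HTSeq summary rows, of which reads on no gene were 12.9% to 22.7% of all recorded, were left out.

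The counts were then tested with edgeR 4.0.16 in R 4.3.3: filterByExpr (minimum count 10), TMM factors, glmQLFit and glmQLFTest on genotype with Benjamini-Hochberg adjustment over all genes tested, and a threshold of 0.05. The test was checked on simulated counts. Of 52636 identifiers, 52403 were paired with a symbol. Lengths and coordinates came from GENCODE M21 (GRCm38, the build of mm10); the authors counted on another release. Likeness used a pseudocount of 0.5 CPM.

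The genes and lists were chosen with earlier results of these data known. All 10 genes are named; of other lists, those with the largest and smallest fold change, those nearest to one of the 10 genes, markers at 0 in all libraries, and *Eya1*. *Gm13415*, *Sall2*, *Ret*, *Pdgfrb* and *Foxd1* were added after their values were seen. Alternatives were DESeq2 1.42.0 size factors, library totals, no filter, at least 10 counts in every library, the Wald test of DESeq2, the legacy quasi-likelihood method, a replicate block, controls thinned to the depth of *Eya1*cKO, and each library left out. Between the control libraries the chi-square per degree of freedom was 9.68, so they differ by more than sampling noise, and between the *Eya1*cKO libraries it was 49.7. A further sequence comparison is not reported here.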

Additional observations from a re-analysis of the deposited data

How the results depend on the processing

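No log2 fold change of the 10 genes changed its sign in 120 fits, 8 alternatives on all 4 libraries and 4 that left out a library for each gene. Where the groups lay apart, this was nearly fixed in advance. *Pax2*, *Uncx*, *Sall1*, *Osr1* and *Meox2* passed, and *Osr2* and *Wt1* did not, under all 8 of the former. The replicate numbers in the labels are not known to pair the libraries, and same-numbered libraries did not deviate together (correlation 0.0062 over 19041 genes). With a replicate block 5 of the 10 genes passed, *Meox1* and *Cited1* having edgeR adjusted *P* values of 0.051 and 0.094 and *Cited2* one of 0.083. In that fit 3 in place of 6 commitment genes, 8 in place of 10 other regulators and 1 in place of 2 ureteric bud markers were lower. Higher were 4 in place of 8 endothelial, 8 in place of 9 podocyte and 2 in place of 3 stroma markers, and no stroma marker was lower. The block fit called 263 genes lower and 358 higher. With thinned controls 4 commitment genes and 9 other regulators were lower, and 5 endothelial and 2 stroma markers were higher. Over all genes, 839 were lower and 981 higher; these counts were 507 and 548 without the low-count filter, 1277 and 1777 with the Wald test of DESeq2, and 515 and 581 with the legacy method, and 638 were higher with thinned controls. With each library left out, between 2 and 8 of the 10 genes were lower (8 without either *Eya1*cKO library, *Pax8* included) and between 0 and 1 higher (*Wt1*, without *Eya1*cKO 1), and among all genes between 7 and 3482 were lower and between 15 and 4443 higher. The smaller numbers came from leaving out a control, where the spread rests on *Eya1*cKO alone and the lone control is assumed to vary likewise. The larger numbers came from leaving out an *Eya1*cKO library. There the spread rests on the controls alone, which were closer to each other, and the lone *Eya1*cKO library is assumed to vary likewise.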

Other observations

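Of 6 relatives of the 10 genes that were not themselves part of the set, *Sall2* fell, *Cited2* rose and 4 did not pass, with a median log2 fold change of -1.01. *Cited2*, which encodes a coregulator related to *Cited1*, had 5959 and 6115 reads in the controls and 5053 and 4580 in the shallower *Eya1*cKO libraries. Scaled to depth these were 171 and 163 CPM against 224 and 261 CPM, higher in *Eya1*cKO (log2 fold change 0.53 ± 0.10 SE, edgeR adjusted *P* = 0.025). Its adjusted *P* was 0.056 without the low-count filter, 0.49 without control 1 and 0.58 without control 2. *Sall2*, of the same family as *Sall1*, had 5204 and 5755 reads in the controls and 1622 and 1516 in *Eya1*cKO (log2 fold change -0.95 ± 0.13 SE, edgeR adjusted *P* = 0.0072), and its adjusted *P* was 0.27 without control 1 and 0.31 without control 2. *Pax5*, the third gene of the *Pax2* and *Pax8* group, had 19 and 40 reads in the controls and 0 and 0 in *Eya1*cKO. Against a floor of 3 counts in the shallower *Eya1*cKO library it was at least 4.71-fold lower, though its edgeR adjusted *P* was 0.12.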
